A study of Mus musculus with 12 samples.

Results

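Guanylate-binding proteins (GBPs) and immunity-related GTPases (IRGs) are families of GTPases that cells make in response to interferon. The genes described here are 5 mouse GBP genes (Gbp2, Gbp3, Gbp4, Gbp5 and Gbp7) and 5 mouse IRG genes (Irgm1, Irgm2, Igtp, Iigp1 and Ifi47), found by matching the Ensembl identifiers of the count table to gene symbols. All 10 had a row among the 78298 genes of the table, and all 10 were among the 22190 genes that passed the filter on low counts. RNA was sequenced from dissected LLC tumours of mouse lung and from normal lung beside them, after chronic exposure to house dust mite (HDM) or after VEH. Tissue and treatment were crossed, which gave normal lung and tumour groups under either treatment, with 3 libraries each. LLC and VEH are used as the labels give them, and the strain, age and sex of the animals, the dose and the duration are not given in the sources used here.

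Interferon-gamma binds its receptor and activates the kinases JAK1 and JAK2, and the signal ends at gamma-activated sites (GAS) in promoters. Type I interferons act mainly through a complex that holds IRF9 and binds interferon-stimulated response elements (ISREs). Interferon-gamma also induces the transcription factor IRF1, which binds ISRE-type sequences. GBPs and effector IRGs gather on the membranes around intracellular microbes and help to break them, and regulatory IRGs sit on the cell's own membranes and hold the effectors inactive there. Both families are much used as a readout of interferon signalling in mouse tissue.

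Promoter sequences were read from RefSeq, which held 9 entries of 300 bases (250 before to 50 after a transcription start) for 8 of the 10 genes, with 2 starts for Gbp3. Gbp4 and Iigp1 had no entry. The RefSeq table is on GRCm38.p6, and every printed sequence matched GRCm39 exactly, whose coordinates are given. The letters searched were GAAANNGAA for the ISRE core and TTCNNNGAA for GAS, on both strands. The stretches below are shown because in these 4 IRG promoters a GAS match is followed, after 2 bases, by an ISRE match. Each is 60 bases, 5′ to 3′ on the gene's own strand, with the GAS and ISRE matches in capitals.
Igtp, chr11:58090317-58090376, plus strand: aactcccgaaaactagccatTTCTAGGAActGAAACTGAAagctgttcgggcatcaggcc
Irgm2, chr11:58105708-58105767, plus strand: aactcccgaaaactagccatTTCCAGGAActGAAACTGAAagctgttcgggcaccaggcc
Tgtp1, chr11:48883122-48883181, minus strand: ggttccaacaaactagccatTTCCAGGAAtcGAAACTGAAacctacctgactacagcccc
Tgtp2, chr11:48955081-48955140, minus strand: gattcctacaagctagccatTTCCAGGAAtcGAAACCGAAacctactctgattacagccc
Tgtp1 and Tgtp2 encode the near-identical effector IRGs also known as Irgb6, and are relatives outside the 10 genes. The Igtp and Irgm2 stretches shared 58 of 60 bases, and the Tgtp1 and Tgtp2 stretches shared 46. The GAS match began 45 bases before the start in Igtp, 75 in Irgm2, 88 in Tgtp1 and 81 in Tgtp2. Of all 32851 RefSeq promoters, 8 (0.0244%) held a GAS match, 2 bases and an ISRE match in this order. The spacing was searched after these sequences had been seen, so its rarity is a description only.

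A further 3 whole promoters show how the matches were placed in other members. Gbp2 held a single ISRE match, Gbp7 held 2 GAS matches and an ISRE match, and Irgm1 held 2 overlapping ISRE matches and no GAS match. Capitals again mark the matches.
Gbp2, chr3:142326174-142326473, plus strand: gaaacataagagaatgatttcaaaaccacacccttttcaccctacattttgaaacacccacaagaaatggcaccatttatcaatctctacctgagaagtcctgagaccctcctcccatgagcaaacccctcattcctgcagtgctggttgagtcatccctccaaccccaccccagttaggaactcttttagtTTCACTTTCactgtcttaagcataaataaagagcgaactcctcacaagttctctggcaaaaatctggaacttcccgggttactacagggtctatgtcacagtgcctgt
Gbp7, chr3:142235847-142236146, plus strand: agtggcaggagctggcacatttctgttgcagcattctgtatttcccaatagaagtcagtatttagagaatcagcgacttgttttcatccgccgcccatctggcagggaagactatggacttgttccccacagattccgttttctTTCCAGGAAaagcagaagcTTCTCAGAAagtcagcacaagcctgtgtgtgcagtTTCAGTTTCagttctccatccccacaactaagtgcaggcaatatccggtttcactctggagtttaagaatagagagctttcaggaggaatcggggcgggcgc
Irgm1, chr11:48762198-48762497, minus strand: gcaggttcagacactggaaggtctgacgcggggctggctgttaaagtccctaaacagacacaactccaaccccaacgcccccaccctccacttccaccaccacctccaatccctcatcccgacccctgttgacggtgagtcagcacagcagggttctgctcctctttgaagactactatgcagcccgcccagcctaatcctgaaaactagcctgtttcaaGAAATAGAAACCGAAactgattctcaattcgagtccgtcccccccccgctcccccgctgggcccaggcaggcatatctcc
The ISRE match of Gbp2 began 58 bases before the start, and that of Gbp7 began 52 bases before it. The matches of Irgm1 began 30 and 24 bases before the start. An ISRE match was present in 7 of the 9 promoters (77.8%) and in 8.56% of all RefSeq promoters. A GAS match was present in 4 of the 9 (44.4%), those of Gbp5, Gbp7, Igtp and Irgm2, and in 8.3% of all. All 4 also held an ISRE match, a combination found in 1.07% of all promoters. Neither set of letters was found in the Ifi47 window or at the other Gbp3 start. A match is a description of letters, not of binding.

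**Figure D1:**
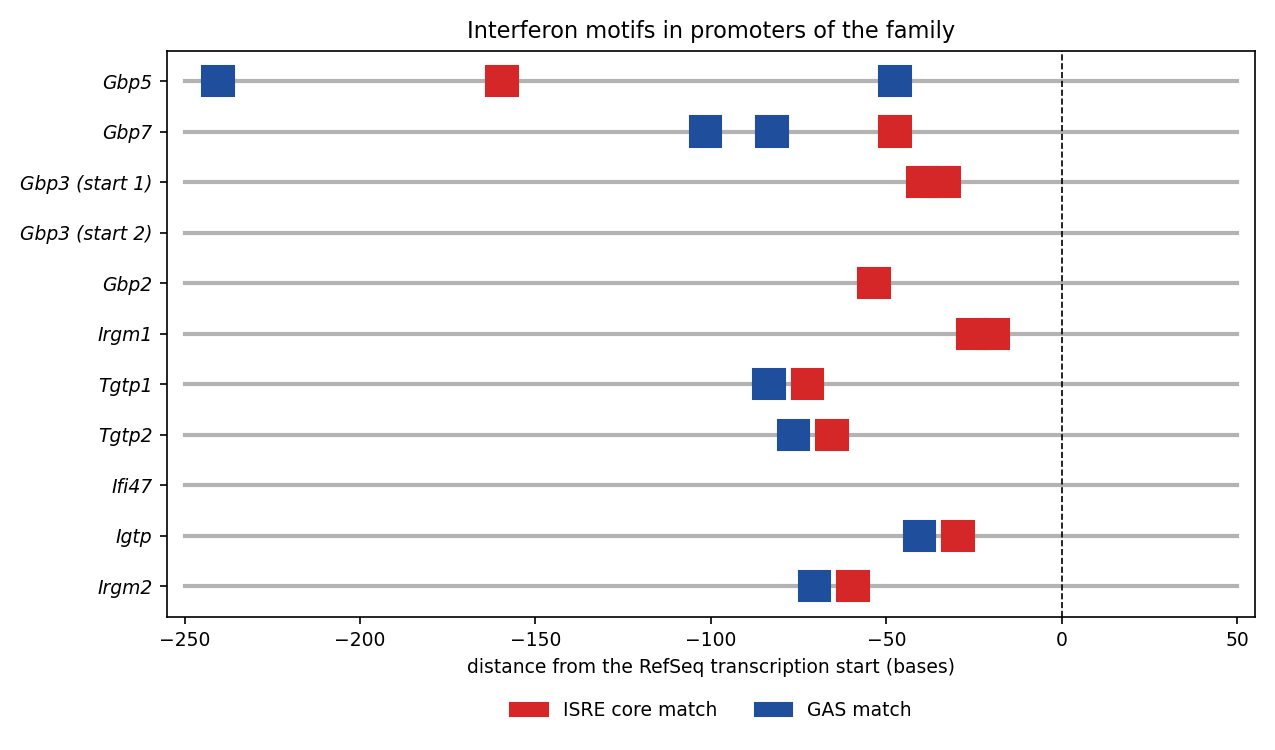
Positions of ISRE (GAAANNGAA) and GAS (TTCNNNGAA) matches, in bases from the transcription start, in the 9 RefSeq promoters of 8 members and in those of Tgtp1 and Tgtp2. Each line is 1 promoter window and each mark is 1 match. The 7 member promoters with an ISRE match lie among the 9, and 4 of them also held GAS.

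Library totals ranged from 20608682 to 32765364 counts, and the share from mitochondrial genes ranged from 0.342% to 5.38%. Levels are CPM, counts scaled to a common library total with TMM factors, given as mean ± SD with n = 3, and the labels do not say whether the libraries of a group came from separate animals, so the p-values measure only the spread between these samples. In whole tissue, fewer cells of a type and less RNA per cell cannot be told apart. Tumour HDM replicate 3 had the lowest mitochondrial share and the lowest level of every member, so the member results that rest on tumour HDM are given with and without it. Library names carry 6 prefixes, each joining a normal and a tumour library, and for 2 prefixes the treatment labels of the pair differ. The labels were kept as given.

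All members were measured in normal lung. Per kilobase of the deposited gene length, Gbp2, a GBP recruited to microbe-containing vacuoles, had the highest mean level in every group. It was at 32.6 ± 9.13 CPM per kilobase in normal VEH, 24.2 ± 4.69 in normal HDM, 105 ± 45.1 in tumour VEH and 25.5 ± 21.8 in tumour HDM. In normal VEH lung the next were Igtp (14.1 ± 4.13), Irgm2 (13.7 ± 2.96) and Ifi47 (11.5 ± 2.88), whose ranges overlapped. Gbp3 (8.38 ± 2.87), Gbp7 (5.89 ± 2.48), Irgm1 (5.88 ± 0.0861) and Iigp1 (4.60 ± 0.894) came after them. Gbp3, Gbp7 and Irgm1 overlapped, and the Irgm1 libraries lay above those of Iigp1. Gbp4 (2.71 ± 2.20) and Gbp5 (2.68 ± 0.996) were lowest and did not differ beyond their spread. In tumour VEH the order after Gbp2 was Igtp (64.2 ± 15.9), then Ifi47, Gbp3, Iigp1, Irgm1 and Irgm2 within 27.5 to 30.0, then Gbp7 (10.7 ± 5.06), with Gbp5 and Gbp4 again last. In both HDM groups Igtp and Irgm2 were the next after Gbp2, and Gbp4 and Gbp5 were again the lowest. The deposited length of every member is below its exon bases in GENCODE M39, so levels per kilobase and their order are uncertain. The gap is largest for Igtp, 2022 bases against 4557. Gbp3 has 3265 against 4248 and Gbp4 7494 against 9699.

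Among the GBPs, the CPM values show high tumour VEH libraries and low tumour HDM libraries, with normal lung between or beside the latter. Gbp2 was at 55.5, 95.0 and 95.7 CPM in normal VEH, 56.5, 74.2 and 51.8 in normal HDM, 380.5, 154 and 257 in tumour VEH and 55.3, 123 and 14.4 in tumour HDM, replicates 1 to 3 in this order. Its lowest tumour VEH library was above every other library, and tumour HDM replicate 3 was the lowest of all 12. Gbp3 was at 19.2, 25.3 and 37.6 CPM in normal VEH, 11.6, 23.7 and 21.7 in normal HDM, 134, 55.1 and 97.4 in tumour VEH and 26.6, 25.8 and 5.52 in tumour HDM. The tumour VEH libraries were again the top 3 of the 12. Gbp4 was at 14.0, 7.87 and 39.0 CPM in normal VEH, 10.7, 20.1 and 23.7 in normal HDM, 39.5, 24.2 and 41.9 in tumour VEH and 6.28, 6.97 and 1.30 in tumour HDM. Here the normal VEH range reached into the tumour VEH range, and all 3 tumour HDM libraries lay below all 6 normal ones.

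Gbp5, known for promoting inflammasome assembly, was at 12.4, 25.1 and 15.8 CPM in normal VEH, 13.1, 13.5 and 11.6 in normal HDM, 47.8, 23.2 and 35.0 in tumour VEH and 10.1, 12.3 and 2.31 in tumour HDM. Tumour VEH replicate 2 fell within the normal VEH range, and the other tumour VEH libraries lay above it. Gbp7, known for supporting the oxidative burst of phagocytes, was at 30.2, 20.8 and 48.2 CPM in normal VEH, 22.6, 18.8 and 29.4 in normal HDM, 89.1, 32.4 and 58.9 in tumour VEH and 24.6, 19.3 and 7.37 in tumour HDM. Its tumour VEH and tumour HDM libraries did not overlap, whereas tumour VEH replicate 2 lay within the normal range.

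Among the IRGs, the regulatory members Irgm1, Irgm2 and Igtp (also called Irgm3) come first. Irgm1, needed in mice for resistance to mycobacteria, was at 34.7, 33.7 and 34.0 CPM in normal VEH, 35.4, 38.6 and 34.5 in normal HDM, 187, 114 and 179.8 in tumour VEH and 44.2, 44.1 and 14.8 in tumour HDM. It had the narrowest range of any member over the 6 normal libraries, 1.14-fold from lowest to highest, against 4.96-fold for Gbp4, the widest. Irgm2 was at 47.0, 41.9 and 62.8 CPM in normal VEH, 49.6, 53.3 and 44.2 in normal HDM, 125, 74.5 and 104 in tumour VEH and 31.8, 29.9 and 8.13 in tumour HDM. Every tumour HDM library was below every normal library, and every tumour VEH library above. Igtp was at 23.8, 23.6 and 38.2 CPM in normal VEH, 22.9, 26.0 and 23.9 in normal HDM, 166, 104 and 119 in tumour VEH and 24.7, 30.7 and 6.34 in tumour HDM. The tumour VEH libraries stood well clear of the other 9, and tumour HDM replicates 1 and 2 lay within the normal range.

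The effector IRGs were Iigp1 (also called Irga6), which coats parasite vacuoles, and Ifi47 (also called Irgd). Iigp1 was at 21.9, 32.2 and 26.3 CPM in normal VEH, 21.3, 22.0 and 18.2 in normal HDM, 227, 112 and 155 in tumour VEH and 33.7, 42.2 and 4.79 in tumour HDM. Tumour HDM replicates 1 and 2 lay above all 6 normal libraries and replicate 3 far below them. Ifi47 was at 21.8, 27.2 and 36.0 CPM in normal VEH, 27.1, 32.9 and 20.3 in normal HDM, 96.4, 56.1 and 69.8 in tumour VEH and 17.2, 17.9 and 4.67 in tumour HDM. All 3 tumour HDM libraries were below the 6 normal ones. Over the 6 tumours the ratio of highest to lowest library ran from 12.1 (Gbp7) to 47.3 (Iigp1).

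**Figure D2:**
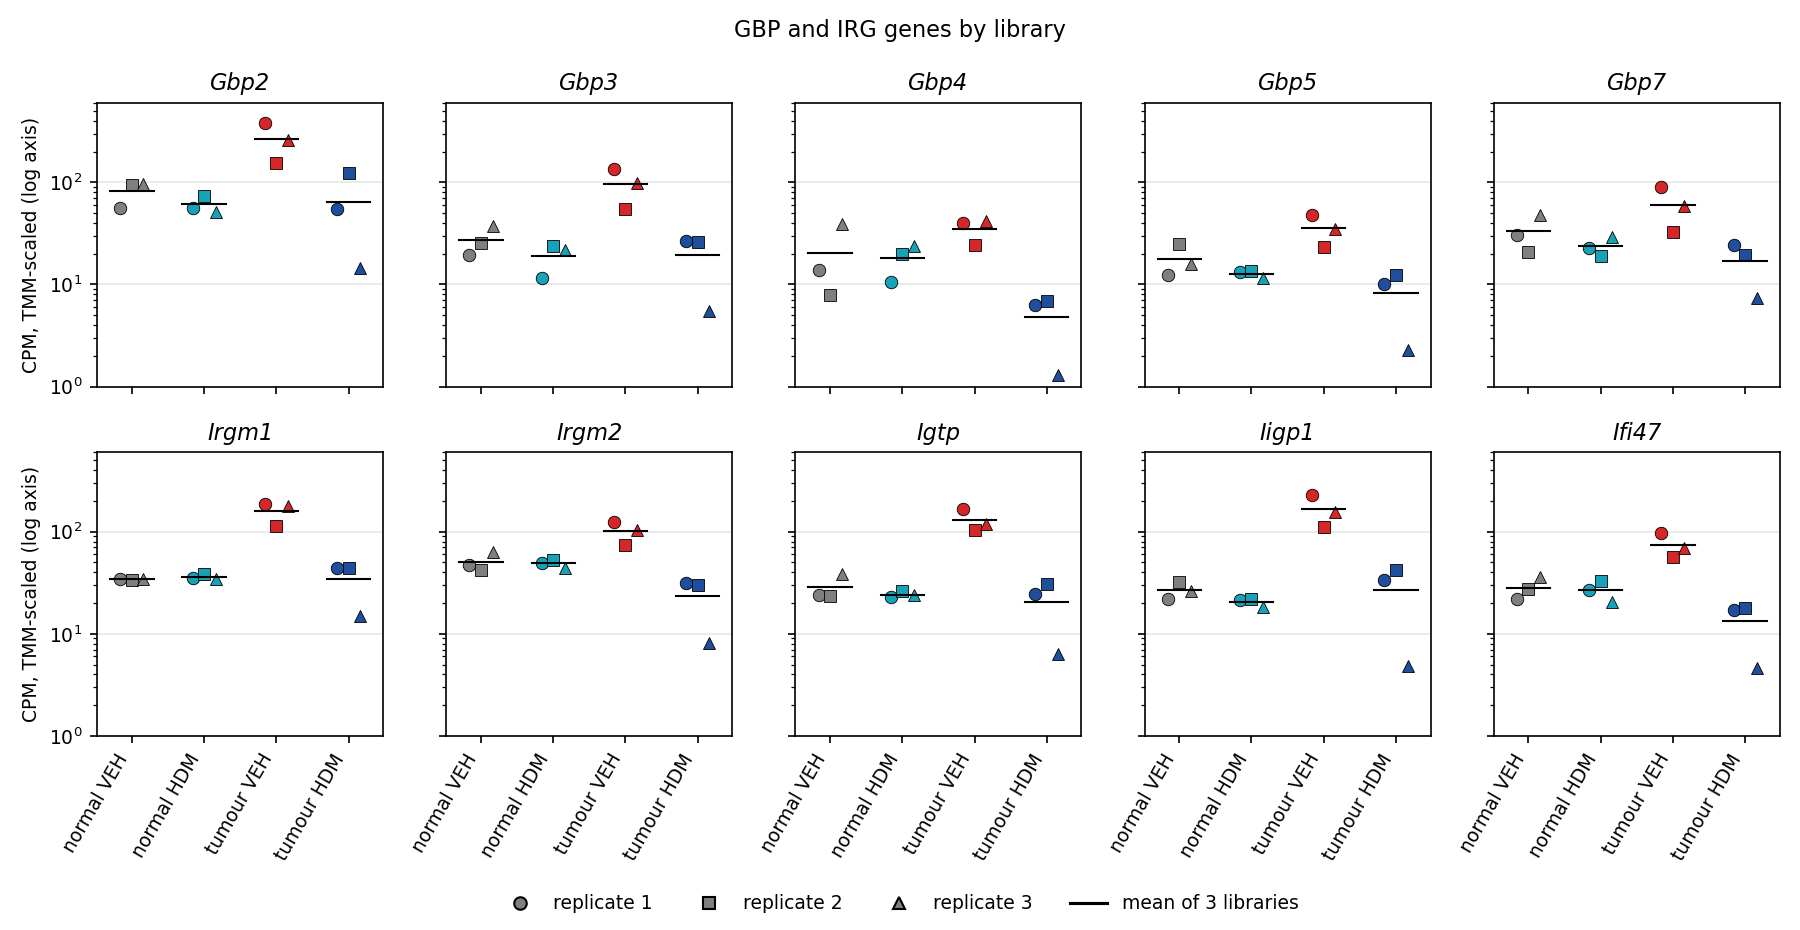
CPM (log axis) of each member in the 12 libraries, by group, with a point per library and a bar at the group mean. For all 10 genes, the 3 tumour VEH points lie above the 3 tumour HDM points, and the lowest tumour point is tumour HDM replicate 3.

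The members ranked the tumour libraries alike. Tumour VEH replicate 1 was the highest of the 6 tumours for 9 members, and Gbp4 was highest in tumour VEH replicate 3. The lowest tumour library was tumour HDM replicate 3 for all 10, and it was also below all 6 normal libraries for all 10. Tumour VEH replicates 1 and 3 were above all 6 normal libraries for all 10 genes, and tumour VEH replicate 2 was for 7. The other 2 tumour HDM libraries were mixed: replicate 1 was above the normal range for 2 genes and below it for 4, and replicate 2 above for 3 and below for 3. Summed over the members, the level was 270.7 to 433.6 CPM in normal libraries, 1492, 750.1 and 1119 in tumour VEH, and 274.4, 352.1 and 69.6 in tumour HDM. Gbp2 alone made up 18.5% to 34.9% of the sum. As a description, Pearson's r between each member and the mean of the other 9 ran from 0.849 (Gbp4) to 0.974 (Igtp) over the 12 libraries, which share their scaling. Over the 6 tumours it was 0.971 to 0.998, and over the 6 normal libraries -0.226 (Irgm1) to 0.957 (Igtp).

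The effect of HDM in normal lung was asked first, as the background for the tumours. None of the 10 members passed the edgeR quasi-likelihood test at an adjusted p below 0.05, none reached an unadjusted p below 0.05, and DESeq2 called none. The log2 differences, HDM minus VEH, ran from -0.53 (Gbp3) to 0.08 (Irgm1), with a median of -0.31. Irgm1 was at 34.1 ± 0.500 CPM in normal VEH and 36.2 ± 2.15 in normal HDM. Over all 22190 genes, 0% were called by edgeR in this comparison, 43 genes (0.206% of those with an adjusted p) were called by DESeq2, and 5.54% had an unadjusted p below 0.05.

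Tumours were then compared with normal lung under VEH. IRG genes rose: Iigp1 went from 26.8 ± 5.20 to 165 ± 57.9 CPM, Irgm1 from 34.1 ± 0.500 to 160.3 ± 40.0, Igtp from 28.5 ± 8.36 to 129.9 ± 32.2 and Ifi47 from 28.3 ± 7.14 to 74.1 ± 20.5. These are fitted folds of 6.15, 4.69, 4.55 and 2.62. Of the GBPs, Gbp3 rose 3.49-fold, from 27.4 ± 9.36 to 95.5 ± 39.4 CPM. In all, 5 of the 10 members rose and none fell (edgeR, adjusted p below 0.05). Genes called higher were 18.2% of all genes in this comparison. The libraries did not overlap for 7 members, all higher in tumours, against 23.9% of all genes. The log2 differences ± SE were 2.62 ± 0.61 for Iigp1 (adjusted p = 0.00798), 2.23 ± 0.35 for Irgm1 (adjusted p = 0.00132) and 2.19 ± 0.47 for Igtp (adjusted p = 0.00535). Gbp3 followed at 1.80 ± 0.56 (adjusted p = 0.0279) and Ifi47 at 1.39 ± 0.44 (adjusted p = 0.0290).

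The other 5 members were higher in mean under VEH without passing the test. Gbp2 missed narrowly, at 1.68 ± 0.61 (adjusted p = 0.0509), with its 3 tumour libraries above its 3 normal ones. Irgm2 was at 1.00 ± 0.41 (adjusted p = 0.0751), also without overlap. Gbp5 (0.99), Gbp7 (0.86) and Gbp4 (0.80) had adjusted p from 0.141 to 0.349. The median over the 10 was 1.54 (0.99 over the 5 GBPs and 2.19 over the 5 IRGs), and over all genes tested -0.11. In a fit without the 4 libraries whose name prefixes join different treatments, Irgm1 was the 1 member still called. The count ran from 3 to 6 as single libraries were left out.

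HDM was then compared with VEH within tumours. No member passed the edgeR test at the adjusted threshold (0 of 10), beside 0.0946% of all genes called and 0.0856% called lower. All 10 had an unadjusted p below 0.05, as did 16.7% of all genes. For all 10, every tumour HDM library was below every tumour VEH library, as for 10.7% of all genes. DESeq2, run as an alternative, called all 10 lower, with adjusted p from 2.53e-06 (Irgm1) to 0.0195 (Gbp2), where it called 4.96% of all genes with an adjusted p lower. The median log2 difference was -2.27 over the members and -0.03 over all genes. With edgeR, a fit of only the compared groups called no member (lowest adjusted p = 0.211). A block for library-name prefix called none either (lowest adjusted p = 0.328), and 8 members had an unadjusted p below 0.05. Without the 4 libraries whose name prefixes join different treatments, none was called (lowest adjusted p = 0.376), and all 10 had an unadjusted p below 0.05.

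Among the IRGs, the mean level of Irgm1 was 160.3 ± 40.0 CPM in tumour VEH and 34.4 ± 16.9 in tumour HDM, a log2 difference of -2.22 ± 0.35 (adjusted p = 0.0527). Igtp was at -2.66 ± 0.48 (adjusted p = 0.0853), Ifi47 at -2.49 ± 0.45 (adjusted p = 0.0855), Irgm2 at -2.12 ± 0.42 (adjusted p = 0.100) and Iigp1 at -2.62 ± 0.61 (adjusted p = 0.139). The standard errors were 0.35 to 0.61 for the IRGs and 0.49 to 0.71 for the GBPs. Gbp4 was at -2.86 ± 0.71, Gbp3 at -2.31 ± 0.57, Gbp5 at -2.10 ± 0.53, Gbp2 at -2.04 ± 0.62 and Gbp7 at -1.82 ± 0.49, with adjusted p from 0.155 to 0.198. The closest pair of libraries across the groups differed 1.25-fold for Gbp2 and 3.47-fold for Gbp4, the ends of the range over the members.

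Leaving out tumour HDM replicate 3 changed the calls. Without it the 5 IRG members fell: Irgm1 by 1.83 on the log2 scale (adjusted p = 0.023), Igtp by 2.20 (adjusted p = 0.023), Iigp1 by 2.09 (adjusted p = 0.0441), Ifi47 by 2.05 (adjusted p = 0.0481) and Irgm2 by 1.69 (adjusted p = 0.0441). In that fit 0.0953% of all genes were called lower. The 5 GBPs did not pass, with log2 differences from -2.38 (Gbp4) to -1.43 (Gbp7) and adjusted p of 0.249 or more. The median was -1.84. Across all alternatives and left-out libraries the sign stayed negative in all 150 results, 1 per member and setting, with log2 differences from -3.21 to -1.11. These settings reuse the same libraries. The 2 tumour groups did not overlap for any member, so leaving out a tumour library was unlikely to turn a sign.

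**Figure D3:**
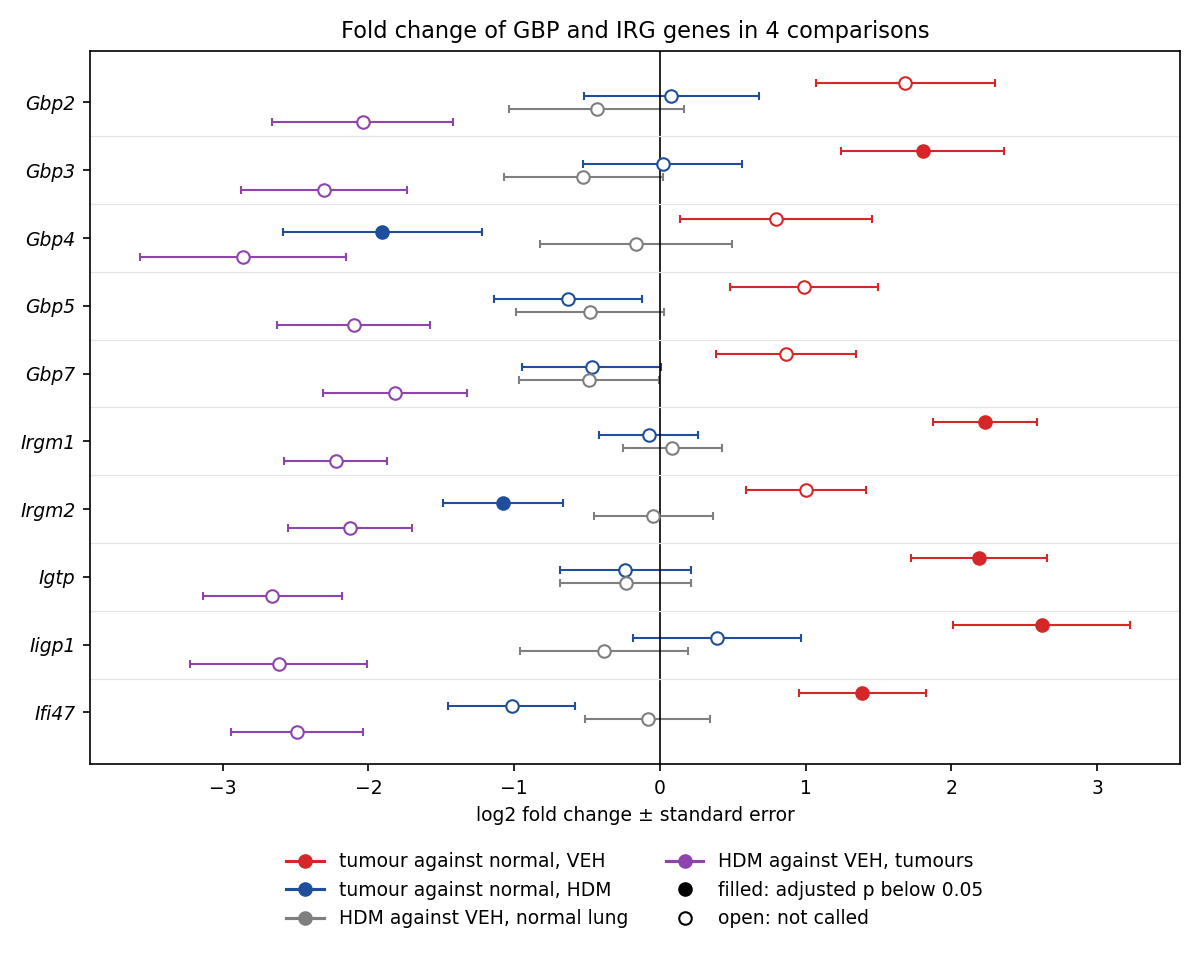
Log2 differences of the 10 members with standard errors in the tumour against normal comparisons under VEH and under HDM and in HDM against VEH in normal tissue and in tumours. Filled points passed the edgeR test at an adjusted p below 0.05: 5 under VEH, 2 under HDM and none in the treatment comparisons.

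Tumour HDM libraries were also compared with normal HDM lung, a comparison that shares the tumour HDM libraries with the preceding one. Gbp4 fell from 18.1 ± 6.72 to 4.85 ± 3.09 CPM, a log2 difference of -1.90 ± 0.68 (adjusted p = 0.0381). Irgm2 fell from 49.0 ± 4.59 to 23.2 ± 13.1 CPM, a log2 difference of -1.08 ± 0.41 (adjusted p = 0.0486). These were the 2 of 10 members called, both lower, against 28.9% of all genes called lower, so the share of members was below the background. Ifi47 was at -1.02 ± 0.43 (adjusted p = 0.0716), and it was the other member whose 3 tumour HDM libraries all lay below the 3 normal HDM ones, which held for 33.5% of all genes. The rest ran from -0.63 (Gbp5) to 0.39 (Iigp1), and the median was -0.35 against -0.08 over all genes. Without tumour HDM replicate 3, Gbp4 (-1.30, adjusted p = 0.108), Irgm2 (-0.53, adjusted p = 0.0917) and Ifi47 (-0.47, adjusted p = 0.213) were not called. In that fit Iigp1 was called higher (1.03, adjusted p = 0.014, beside 21.6% of all genes called higher), and the median was 0.19. Neither block kept a call: no member was called with a block for library-name prefix (lowest adjusted p = 0.0793) or with one for replicate number (lowest adjusted p = 0.0607).

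Whether the tumour difference itself depended on treatment was tested as the interaction, the tumour minus normal difference under HDM less that under VEH. The log2 interaction was negative for all 10, from -2.70 (Gbp4) to -1.33 (Gbp7), with a median of -2.16. No member was called by edgeR (0 of 10, beside 0% of all genes), 8 had an unadjusted p below 0.05 (9.39% of all genes), and Gbp2 and Gbp7 were the 2 that did not. The 5 IRGs lay between -2.42 and -2.08. DESeq2 called 3 members (Irgm1, Igtp and Ifi47) lower, beside 0.852% of all genes with an adjusted p, and 222 genes in all. Without tumour HDM replicate 3, no member was called (lowest adjusted p = 0.103, beside 0.026% of all genes called), 8 had an unadjusted p below 0.05, and the median was -1.66. Tumour VEH, the group with the highest members, enters both the VEH comparison and this one.

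Within pairs of libraries that share a name prefix, tumours were above normal lung for all 10 members in the pair of normal VEH replicate 1 and tumour VEH replicate 1 (median log2 difference 2.28). They were above for 8 members in the pair of normal VEH replicate 3 and tumour VEH replicate 2 (median 0.60). In the pairs under HDM, the tumour was higher for 4 members (normal HDM replicate 2 and tumour HDM replicate 1, median -0.24) and for none (normal HDM replicate 1 and tumour HDM replicate 3, median -2.05). In the 2 pairs with conflicting treatment labels, tumour VEH replicate 3 was above normal HDM replicate 3 for all 10 (median 1.97), and tumour HDM replicate 2 was above normal VEH replicate 2 for 5.

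Relatives in the same families were described for comparison, 16 genes with a row, of which 15 were tested. Under VEH, 5 rose in tumours: Gbp2b, Gbp6 (log2 difference 2.57, adjusted p = 0.0105), Gbp10, Gm4841 and Gm5431 (1.69). Genes called higher there were 18.2% of all. Gbp2b was at 3.82, 3.42 and 2.12 CPM in tumour VEH and 0.657, 0.126 and 0.0842 in normal VEH. Gbp10 was at 3.65, 1.41 and 3.60 CPM in tumour VEH and 0.0821, 0.0944 and 0.168 in normal VEH, and both had too few counts in places for a fold to be read. Under HDM, Gbp9 (-1.81) and 9930111J21Rik2 (-1.35) fell, 2 of the 15. Genes called lower there were 28.9% of all, so this share was below the background. Between treatments in tumours none of the 15 was called, and the median was -2.13 (-1.73 without tumour HDM replicate 3). An unadjusted p below 0.05 was found for 9, beside 16.7% of all genes. Lower HDM libraries with no overlap were found for 9, beside 10.7% of all genes. Tgtp2, whose promoter stretch is printed with those of Igtp and Irgm2, was at 45.0, 40.4 and 41.8 CPM in tumour VEH and 9.28, 7.38 and 0.849 in tumour HDM, and it fell when tumour HDM replicate 3 was left out (-2.32, adjusted p = 0.0441). Gbp6 was at 28.2, 11.9 and 28.6 CPM in tumour VEH and 6.24, 5.12 and 0.879 in tumour HDM, again without overlap. Irgq, an IRG relative not known for interferon induction, lay at 24.3 to 47.2 CPM over the 12 libraries, with a log2 difference of 0.12 between treatments in tumours. Irgc, a relative known from testis, stayed at or below 1.31 CPM.

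Near-identical copies limit some of these rows. Of the 100-base windows of exon sequence, 74.7% of Tgtp1 and 76.8% of Tgtp2 matched another gene, 53.6% of Gbp6 and 59.6% of Gbp10 did, and 70.5% of 9930111J21Rik1 and 47.1% of 9930111J21Rik2 did, so counts within these pairs may be split between copies. The members shared less: Gbp7 11.9%, Irgm2 6.62%, Gbp5 6.4%, Ifi47 5.82%, Igtp 3.06%, Irgm1 2.64%, Gbp4 1.34%, Gbp3 0.466%, and none for Gbp2 and Iigp1. Windows were matched on both strands, so part of these shares came from genes that overlap on the opposite strand and not from copies. Such a gene matched all 183 shared windows of Irgm1, 471 of 497 of Gbp5 and 164 of 178 of Ifi47. Igtp and Irgm2 overlap by 162 exon bases on the same strand, and Gbp4 overlaps the neighbouring Gbp8 and Gbp9. Gm43302 overlaps 25.4% of the exon bases of Gbp6 and 44% of those of Gbp10 on the same strand. This gene matched 47.5% of the Gbp6 windows and 51.4% of the Gbp10 windows. It had 2 counts in all, so part of the Gbp6 and Gbp10 counts is uncertain. Irgm1, Irgm2, Gbp2, Gbp5, Gbp7 and Ifi47 overlap a gene on the other strand, and the strand setting of the counting is not given in the sources used here. The overlapping opposite-strand gene of Irgm1 had 2579 counts in all against 19772 for Irgm1, that of Irgm2 had 4925 against 16917, and the microRNA gene Mir6381 opposite Gbp2 had 2401 against 35477, so part of these counts is uncertain. The row of Irgb10, an effector IRG annotated as Gm12250, had 0 counts in all libraries and lies inside a longer noncoding gene of the same name. All 1274 of its exon bases are shared with that gene on the same strand, and that gene had 580 counts in all. The 0 is therefore not read as absence of expression.

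The members sit in clusters on GRCm39. On chromosome 3, plus strand, lie Gbp5 (142199739 to 142228105), Gbp7 (142236044 to 142255910), Gbp3 (142265731 to 142278979) and Gbp2 (142326349 to 142343779). Gbp4 lies on chromosome 5, minus strand (105263633 to 105287609). On chromosome 11 lie Irgm1 (48752795 to 48763164, minus strand) and Ifi47 (48967412 to 48987813, plus strand), and further along Igtp (58089840 to 58098417) and Irgm2 (58090444 to 58113615), both on the plus strand. Iigp1 lies elsewhere, outside these clusters.

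Upstream genes of the pathway were read from a list of 8 interferon ligands and receptors, of which 5 were tested, and a list of 14 kinases, STATs, IRFs and regulators. Ifng, the interferon-gamma gene, was at 0.0819 CPM or less in normal libraries, at 0.552, 0.0744 and 1.20 CPM in tumour VEH and at 0, 0.546 and 0 in tumour HDM, with 26 counts in its highest library, so no order is read from it. The receptor genes Ifngr1 (-0.22) and Ifngr2 (-0.25) had small log2 differences between treatments in tumours, and neither was called. Under VEH, Ifnar1 rose (0.49) and Ifnar2 fell (-0.58) in tumours. Of all genes, 18.2% were called higher and 4579 of 22190 lower there.

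Of the 14 signalling genes, 8 rose in tumours under VEH and none fell, with a median of 0.80, beside 18.2% of all genes called higher. Irf7, an amplifier of type I interferon, rose by 3.21 (adjusted p = 0.00182), and Nlrc5, an activator of MHC class I genes, by 2.04. Between treatments in tumours none of the 14 was called and 10 had an unadjusted p below 0.05 (16.7% of all genes), with a median of -1.20. Without tumour HDM replicate 3, none was called, 5 had an unadjusted p below 0.05 and the median was -1.02. Irf9 was at -1.36 (adjusted p = 0.0584) and Irf1 at -1.50 (adjusted p = 0.114). Irf1 was at 135, 155 and 153 CPM in tumour VEH and 67.5, 54.3 and 34.5 in tumour HDM, and these libraries did not overlap. Under HDM, Irf2, Irf9 and Ciita fell in tumours against normal lung and Jak1 rose. In that comparison 3 of the 14 fell and 1 rose, beside 28.9% of all genes called lower and 5110 of 22190 called higher.

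Other interferon targets were counted from 2 lists. Of 18 other interferon-gamma targets, 6 fell between treatments in tumours, and these passed in the test over all genes: the immunoproteasome genes Psmb10 (-1.70 ± 0.20, adjusted p = 0.0274), Psmb8 (-2.13) and Psmb9 (-2.10), the MHC class II gene H2-Ab1 (-2.87), Ly6a (-2.32) and the ISG15-conjugating enzyme Ube2l6 (-2.05). Genes called lower were 0.0856% of all in that test. Without tumour HDM replicate 3, 7 of the targets fell, with H2-Aa and Cd74 among them and without Ube2l6, beside 0.0953% of all genes. The median was -2.14, and -1.80 without that library. When any other single tumour library was left out, 0 of all genes were called between treatments in tumours. That count was also 0 with only the compared groups, with a block for library-name prefix and without the 4 libraries of conflicting prefix. In tumours against normal lung, 5 of the 18 rose under VEH, and under HDM 11 fell and 3 rose. Of all genes, 18.2% were called higher under VEH, and under HDM 28.9% were called lower and 5110 of 22190 higher. Of 15 type I interferon-stimulated genes, 11 rose in tumours under VEH, among them Isg15 (2.81) and Zbp1 (4.17), beside 18.2% of all genes. Between treatments in tumours none was called and 12 had an unadjusted p below 0.05 (16.7% of all genes), with a median of -1.98. Without tumour HDM replicate 3, 8 did, none was called and the median was -1.55. Of 15 tested partners of GBPs and IRGs (autophagy conjugation genes, inflammasome genes and caspases), none was called between treatments in tumours and none had an unadjusted p below 0.05, with a median of -0.01. In that list Casp1, the caspase of inflammasomes, rose under VEH (1.80), and Atg3, Atg7 and Gabarapl1 fell. These are 1 higher and 3 lower of 15, beside 18.2% of all genes called higher and 4579 of 22190 called lower. Neither share was above that of all genes.

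**Figure D4:**
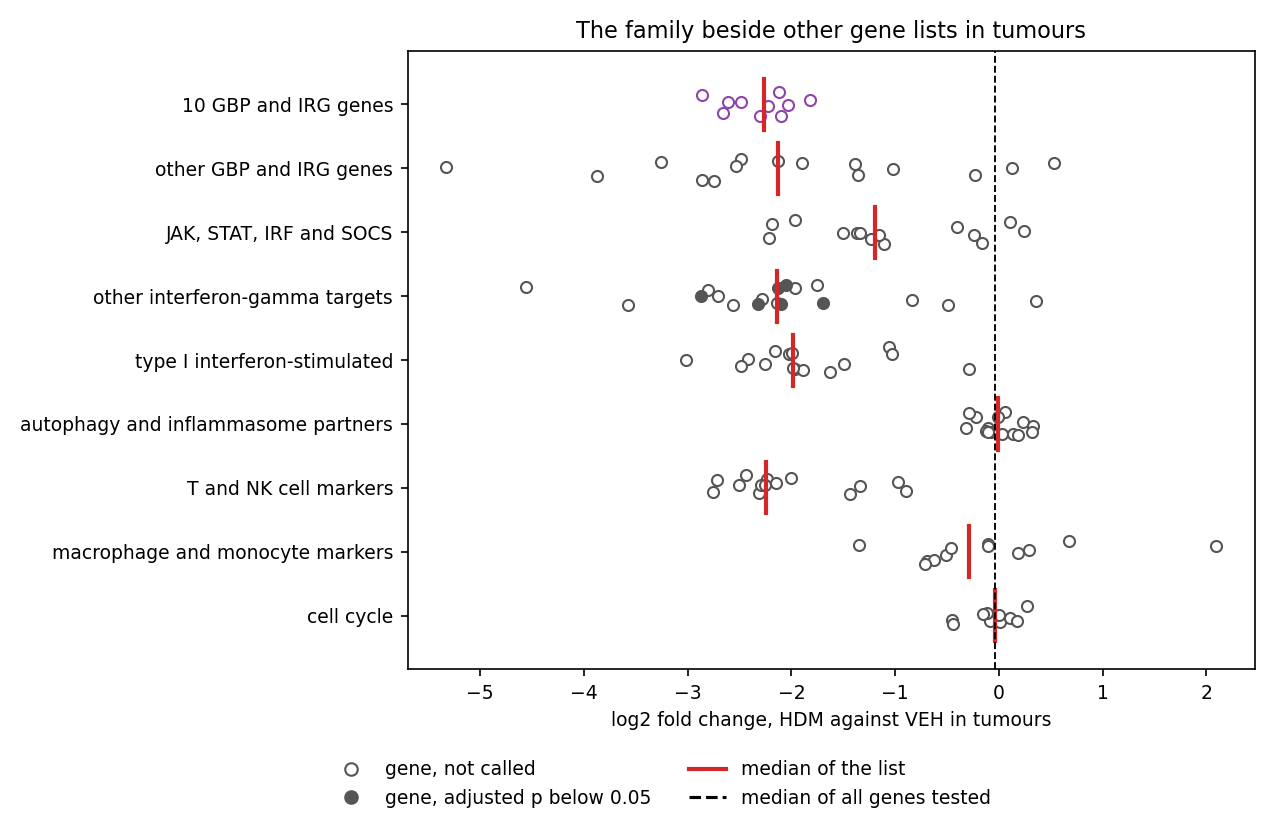
Log2 difference, tumour HDM minus tumour VEH, of each tested gene (points) in the members and some gene lists, with list medians as bars. Drawn lists are other GBP and IRG genes, signalling genes, other interferon-gamma targets, type I interferon-stimulated genes and partners of GBPs and IRGs. T and NK cell, macrophage and cell cycle genes are drawn too. Lists not drawn include the airway markers, whose median was -3.79. The members have a median of -2.27 and the partners of GBPs and IRGs a median of -0.01.

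Markers of other cell types were read beside these levels. Between treatments in tumours, 16.7% of all genes had an unadjusted p below 0.05 and 10.7% had lower HDM libraries with no overlap. Of 14 T and NK cell genes, none was called, 11 had an unadjusted p below 0.05 and 11 had lower HDM libraries with no overlap, with a median of -2.25. Their summed level was 85.0 to 123.3 CPM in tumour VEH, 5.73 to 35.4 in tumour HDM (lowest in replicate 3) and 28.5 to 64.8 in normal libraries. Macrophage and monocyte markers had a median of -0.29 (range -1.35 to 2.09), with 1 gene at an unadjusted p below 0.05 and none called. Of these 12 markers, 4 had a positive and 8 a negative log2 difference. Without overlap, 2 were higher and 3 lower under HDM. The 12 summed to 2762 to 4806 CPM in tumour VEH and 2585 to 4521 in tumour HDM. Endothelial markers (median -1.12) summed to 352.7 to 627.4 CPM in tumour VEH and 124.5 to 327.5 in tumour HDM. Alveolar markers (median -1.35) summed to 2718, 9669 and 2800 CPM in tumour VEH and to 2913, 2966 and 103.2 in tumour HDM, so the low value was replicate 3 alone, against 18500 to 49350 in normal libraries. Airway markers had a median of -3.79, with 5 of 6 at an unadjusted p below 0.05 and none called. Only 1 of the 6 airway markers had lower HDM libraries with no overlap. The airway markers summed to 556.8 to 20020 CPM in tumour VEH and 19.4 to 1187 in tumour HDM, with 1 marker at 0 in replicate 3. Dendritic cell markers (median -1.70) summed to 120.0 to 183.0 CPM and 48.6 to 100.8 CPM in these groups, and B and plasma cell markers (median -0.74) to 11.4 to 22.0 and 6.22 to 54.1. An unadjusted p below 0.05 was found for 5 of 8 dendritic and 6 of 10 endothelial markers. Lower HDM libraries with no overlap were found for 6 dendritic and 5 endothelial markers. For alveolar markers these counts were 1 and 1 of 10, and for B and plasma cell markers 2 and 1 of 6. Cell cycle genes had a median of -0.04. Tumour HDM replicate 3 had the lowest sum of the 6 tumours in the T and NK, macrophage, endothelial, alveolar, airway, dendritic and B cell lists. Without it the medians were -1.74 for T and NK cell genes, -0.31 for macrophages, -0.88 for endothelium, -0.79 for alveolar, -3.18 for airway, -1.27 for dendritic and -0.27 for B and plasma cell markers, and -0.34 for the cell cycle. The part of these cell types in the levels of the members was not tested.

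The genes whose pattern was most like the members' were ranked by Pearson's r with their mean standardised log2 CPM over the 12 libraries, which share their scaling. Genes whose symbol is an Ensembl identifier, Gm with a number or a Rik name were left out of the ranking. Those given here are Rtp4 (0.971), Tap1 (0.950), Klrk1 (0.947), Gbp6 (0.946), Tapbp (0.938), Adgrg5 (0.931) and Tgtp2 (0.924). Rtp4 is an interferon-stimulated gene, Tap1 and Tapbp load peptides on MHC class I, and Klrk1 encodes the NK cell receptor NKG2D. Over the 6 tumours their r was 0.980 to 0.997. Over the 6 normal libraries it ran from -0.645 (Tapbp) to 0.712 (Rtp4), below the tumour value for each of the 7.

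**Figure D5:**
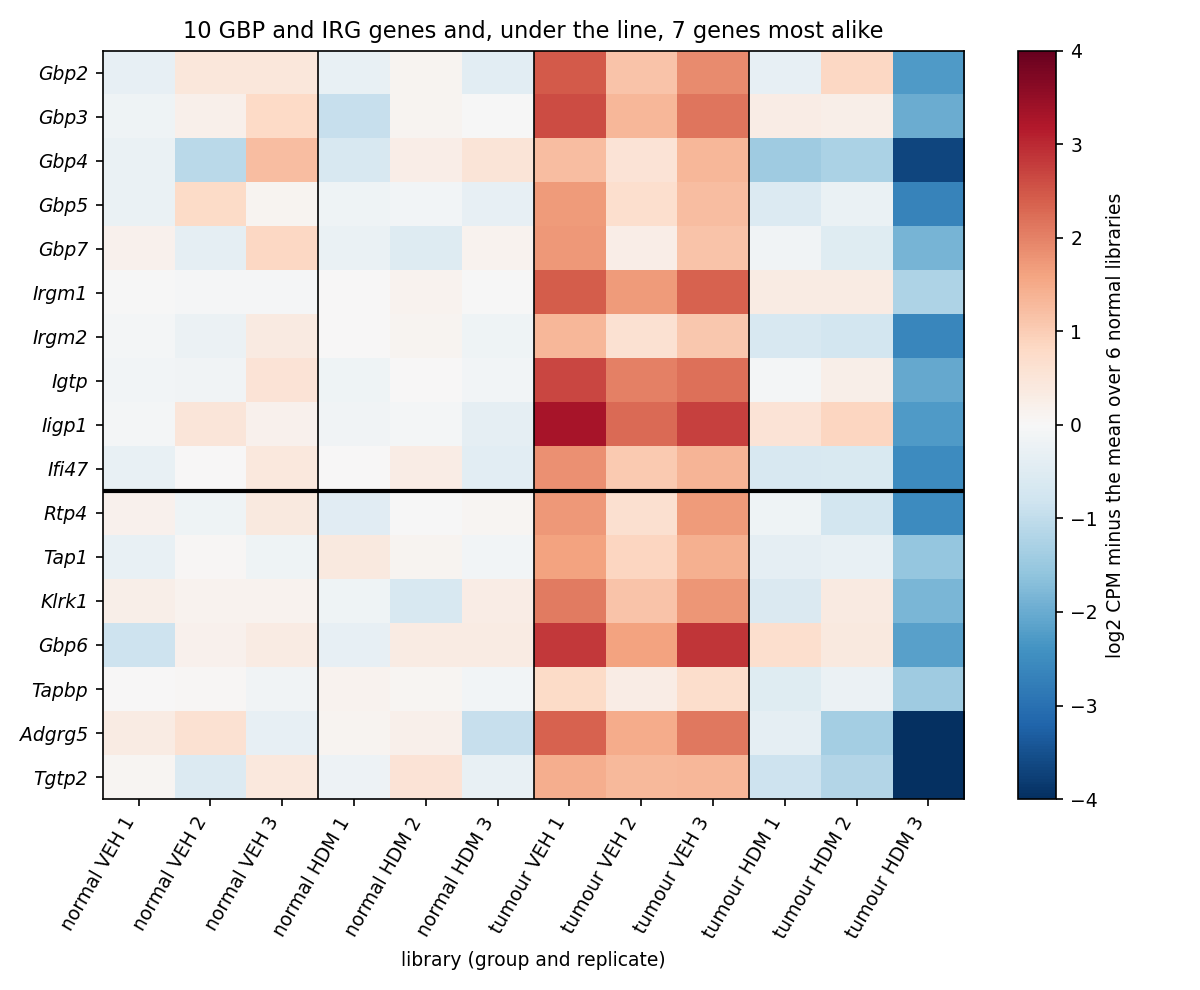
Log2 CPM minus the mean over the 6 normal libraries, for the 10 members and, under the line, 7 genes like them (rows) in the 12 libraries (columns, by group and replicate). For the members, tumour VEH replicates 1 and 3 are above that mean for all 10 genes and tumour HDM replicate 3 is below it for all 10.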

How the data were processed

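RNA sequencing gave 12 mouse lung libraries, 3 per group, with groups taken from the sample labels. The authors deposited raw counts per Ensembl gene with gene lengths. Per the submitters' processing notes, Trim Galore, STAR, featureCounts (Subread) and mm39 were used, and the annotation release and strand setting are not given in the sources used here. Symbols came from GENCODE M39, which held 78168 of the 78298 identifiers.

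Counts were analysed with edgeR 4.0.16 in R 4.3.3: filterByExpr with a minimum count of 10, TMM scaling, and a robust quasi-likelihood F-test (two-sided) with a coefficient per group over all 12 libraries. P-values were Benjamini-Hochberg adjusted over the 22190 genes of each comparison, and called means an adjusted p below 0.05. The scripts were tested on simulated data. Standard errors are the log2 difference divided by the square root of F. Alternatives were other scalings and filters, the Wald test of DESeq2 (1.42.0), fits restricted to the groups compared, blocks by replicate number and by library-name prefix, and leaving out libraries. Named genes are the 10 members, their relatives, members of the described lists and genes most like them, of which 1 is not reported here. Members and lists were chosen with earlier results of these data known.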

Additional observations from a re-analysis of the deposited data

How the results depend on the processing

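The 5 members called higher in tumours under VEH became 3 with no filter on low counts, 3 with a block for library-name prefix, 1 without the 4 libraries of conflicting prefix, and 3 to 6 with single libraries left out. Their number was 7 with scaling by library size only, 7 in a fit of only the compared groups and 6 by DESeq2. The 2 called lower under HDM became 0 with scaling by library size only, 0 with no filter, 1 in a fit of only the compared groups, 0 with a replicate block, 0 with the prefix block, 0 without the 4 libraries, and 0 to 1 with single libraries left out. They became 3 by DESeq2 and 3 with at least 10 counts in every library. The 0 called between treatments in tumours became 1 with no filter (Irgm1), 3 with at least 10 counts in every library, 10 by DESeq2, and 0 to 5 with single libraries left out. The 0 called for the interaction became 3 by DESeq2.

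Over all genes, only the larger changes are listed. The 8624 called under VEH became 5603 without the 4 libraries and 5733 to 9070 with single libraries left out. Between treatments in normal lung, 0 became 43 by DESeq2. Between treatments in tumours, 21 became 8 by library size, 52 with no filter, 53 with at least 10 counts in every library, 1311 by DESeq2, 0 in the compared groups alone, 1 with a replicate block, 0 with the prefix block, 0 without the 4 libraries, and 0 to 24 with single libraries left out. For the interaction, 0 became 222 by DESeq2 and 0 to 6 with single libraries left out. The causes of these changes were not tested.

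With the replicate block, 4 members were called under VEH and 0 between treatments in tumours. Same-numbered libraries did not deviate together (r from -0.355 to 0.303, and 5 of 12 libraries correlated best with their own number), so the numbers were not used to pair samples. Member signs changed in 16 of 150 fits for HDM against VEH in normal lung, in 21 of 150 under HDM, and in none for the other comparisons.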
